A study of Homo sapiens with 33 samples.

Results

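Interferon-stimulated genes were followed across 11 high-grade serous ovarian carcinoma cell lines, 7 of them resistant to platinum drugs and 4 of them sensitive. The set held 49 genes, taken by symbol from the 29744 genes of the deposited tables, and all 49 were found and tested. Each line was represented by 3 RNA-seq libraries, 33 in all. OVCAR3 and OVCAR4 were the sensitive parents of OVCAR3 ResA, OVCAR3 ResB, OVCAR4 ResA and OVCAR4 ResB, which the study had selected by repeated pulses of cisplatin, with ResA and ResB as independent selections. PEO1 and PEA1 were the sensitive lines of the pre-existing series PEO1, PEO4 and PEO6 and PEA1 and PEA2, in which the lines of a series share an origin and PEO4, PEO6 and PEA2 are the platinum-resistant lines. The labels gave only a cell line and a replicate number, with no treatment. Each resistant line is a single selected or derived culture, so that a difference within a pair is a difference between 2 cultures. The labels did not say whether replicates were separate cultures, so the p-values measure the spread between these libraries, which may be technical. In bulk RNA, more expressing cells and more RNA per cell cannot be told apart.

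Interferons are secreted when a cell senses foreign or misplaced nucleic acid. Type I interferons and the lambda interferons act through the kinases JAK1 and TYK2 on STAT proteins, which join IRF9 and bind the interferon-stimulated response element (ISRE) in the promoters of their target genes. The target genes encode proteins that bind viral RNA, stop translation, block viral entry or release, or attach the ubiquitin-like protein ISG15 to other proteins, and several of them, such as IRF7 and IRF9, feed back on the pathway. Tumour cells can express these genes without added interferon, and expression of this kind has been studied in relation to resistance to DNA-damaging therapy.

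Most members with a promoter window held the ISRE core, which is not independent of their choice as interferon-stimulated genes. RefSeq promoter windows of GRCh38.p14, from 250 bases before to 50 bases after a start site, were found for 39 of the 49 members. The ISRE core GAAANNGAA, searched on both strands, lay in the windows of 29 of these 39 members, or 74.4%, against 9.86% of 27303 genes with a window. At least 2 matches, which may overlap, were present in 17 members. The core of the gamma-activated site, TTCNNNGAA, lay in 13 members, or 33.3%, against 9.38% of all genes. A match describes the letters of the window and not a bound site. The 170 bases before the start site are shown for 6 members described in the pairs, 5′ to 3′ on the strand of the gene, with matches to the ISRE core in capitals. They come from ISG15 (chr1:1013327-1013496, plus strand), IFI6 (chr1:27672193-27672362, minus strand), IFIT1 (chr10:89392453-89392622, plus strand), BST2 (chr19:17405631-17405800, minus strand), IFITM1 (chr11:313870-314039, plus strand) and EPSTI1 (chr13:42992242-42992411, minus strand).
ISG15: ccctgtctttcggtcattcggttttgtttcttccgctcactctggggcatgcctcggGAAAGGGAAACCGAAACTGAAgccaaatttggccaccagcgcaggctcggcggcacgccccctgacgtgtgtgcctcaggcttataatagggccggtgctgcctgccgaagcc
IFI6: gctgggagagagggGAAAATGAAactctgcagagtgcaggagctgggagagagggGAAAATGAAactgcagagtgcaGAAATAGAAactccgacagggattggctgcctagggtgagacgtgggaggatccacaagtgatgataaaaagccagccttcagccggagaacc
IFIT1: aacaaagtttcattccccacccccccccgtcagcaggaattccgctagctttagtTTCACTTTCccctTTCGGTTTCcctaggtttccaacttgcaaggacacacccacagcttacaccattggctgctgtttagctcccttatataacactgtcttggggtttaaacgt
BST2: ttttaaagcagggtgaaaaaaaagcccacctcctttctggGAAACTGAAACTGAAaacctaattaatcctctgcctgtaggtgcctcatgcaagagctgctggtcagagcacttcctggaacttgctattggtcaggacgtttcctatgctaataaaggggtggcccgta
IFITM1: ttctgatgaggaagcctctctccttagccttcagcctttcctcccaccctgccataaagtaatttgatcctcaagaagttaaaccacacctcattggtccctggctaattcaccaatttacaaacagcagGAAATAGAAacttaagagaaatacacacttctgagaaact
EPSTI1: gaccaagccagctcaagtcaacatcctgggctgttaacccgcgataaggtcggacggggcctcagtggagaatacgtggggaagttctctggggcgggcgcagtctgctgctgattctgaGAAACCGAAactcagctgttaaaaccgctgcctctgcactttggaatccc
In ISG15 the 3 matches began at positions -113, -107 and -101 from the start site and overlapped, and in BST2 the 2 matches began at -130 and -124. IFIT1 carried both of its matches on the opposite strand. EPSTI1, whose levels ran differently from those of most members, still held 1 match, at -50.

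Total estimated counts per library ranged from 18058985 to 43394009, with a median of 30611448. By correlation of log2(TPM + 1) across expressed genes, 31 of the 33 libraries were nearest to a library of their own line. The exceptions were the replicate 1 libraries of OVCAR4 ResA and OVCAR4 ResB, each of which had the other as its closest library (Pearson's r = 0.959). Mitochondrial ribosomal RNA genes took 9.23% of the counts in the first of these and 13.1% in the second, against 2.02% to 2.47% in the other libraries of both lines. In OVCAR4 itself the same share was 5.18% in replicate 1 and 14.8% and 12% in replicates 2 and 3. Counts of members called in the OVCAR4 pairs are given with and without replicate 1. Fold changes are from DESeq2, whose size factors left the median of all genes within 0.03 of 0 in every pair, while levels are TPM (length-scaled transcript shares), which are comparable between genes. On the log2(TPM + 1) scale the median of all genes itself was 0.44 higher in OVCAR4 ResA and 0.47 higher in OVCAR4 ResB than in OVCAR4, and 0.14 and 0.11 higher in OVCAR3 ResA and ResB than in OVCAR3, so that TPM differences in those pairs run above the fold changes. Of 8 epithelial markers, 6 to 8 were at 1 TPM or more in every line. PEA1 had the lowest sum, 426 TPM against 1817 to 6399 TPM elsewhere, with KRT19 at 0.46 TPM and CDH1 at 1.26 TPM. The leukocyte markers CD3E and CD79A averaged at most 0.0186 and 0.591 TPM in any line, and PTPRC averaged 3.3 TPM in PEA2 and at most 0.339 TPM elsewhere. CD68, also on the leukocyte list, averaged 49.9 TPM in PEA2, 28.8 TPM in PEO1, 28.3 TPM in PEO4 and 10.2 TPM in PEO6, and the 6 leukocyte genes summed to between 2.38 TPM (OVCAR3) and 56.3 TPM (PEA2). The 5 fibroblast genes summed to between 0.892 TPM (PEA2) and 95 TPM (PEA1), with LUM at 1.54 TPM in OVCAR4 and 17.7 TPM in OVCAR4 ResA, and the 3 endothelial genes to between 0.0683 and 7.37 TPM, with PECAM1 at 0.0259 TPM in OVCAR3 and 6.76 TPM in OVCAR3 ResB. The part of these markers in the results was not tested.

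The 49 genes stood at very different levels in the 11 lines. Their mean log2(TPM + 1) was highest in PEO4 (6.00 ± 0.39, SD, n = 3) and PEO6 (5.70 ± 0.17), followed by PEA1 (4.90 ± 0.36) and PEA2 (4.03 ± 0.30). It was lowest in OVCAR4 (1.97 ± 0.08), while the mean over all expressed genes lay between 2.99 and 3.36 in every line. PEO1 (3.32 ± 0.14) stood below its resistant relatives and PEA1 stood above its own. Summed over the members, the level was 9574 ± 1700 TPM in PEO4 and 9545 ± 250 TPM in PEO6, against 2812 ± 711 TPM in PEA1, 971 ± 96.7 TPM in PEO1, 944 ± 64.6 TPM in OVCAR3 and 917 ± 236 TPM in OVCAR4. All 49 members averaged at least 1 TPM in PEO4 and in PEO6, but only 29 did in OVCAR4. The libraries of neighbouring lines in this order did not overlap between PEO6 and PEA1, between PEA1 and PEA2, between PEO1 and OVCAR3, or between OVCAR4 ResB and OVCAR4, and they overlapped at every other step. PEO4 held the highest mean of 27 members, PEO6 of 8 and PEA1 of 7. OVCAR4 held the lowest mean of 28.

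**Figure D1:**
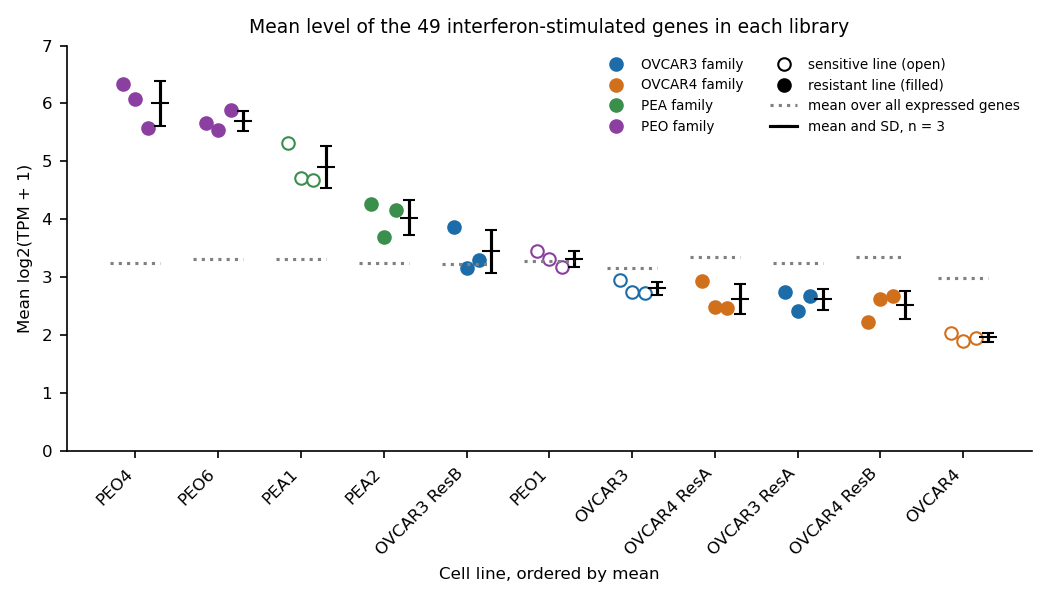
Mean log2(TPM + 1) over the 49 genes (vertical axis) in each of 3 libraries per line (points), with the mean and SD of the line beside them and the mean over all expressed genes as a dotted line. PEO4 and PEO6 lay highest, at 6.00 and 5.70, and OVCAR4 lowest, at 1.97.

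The 3 most abundant members held between 25.4% (PEA1) and 74.4% (OVCAR4) of the sum of a line. IFITM3, which with IFITM1 and IFITM2 blocks the entry of enveloped viruses and lies beside them on chromosome 11, was the most abundant member in 8 of the 11 lines. IFI27, a small mitochondrial and nuclear-membrane protein, was the most abundant in the PEO lines. It took 30.7% of the members' sum in PEO4 and 39.1% in PEO6, where its libraries held 4207, 3654 and 3323 TPM. The 3 IFITM genes are close in sequence, and the split of reads between them is uncertain. Without them OVCAR3 ResB and PEO1 exchanged ranks 5 and 6, and the rest of the order was as before. The heat map of mean levels shows the members by role.

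**Figure D2:**
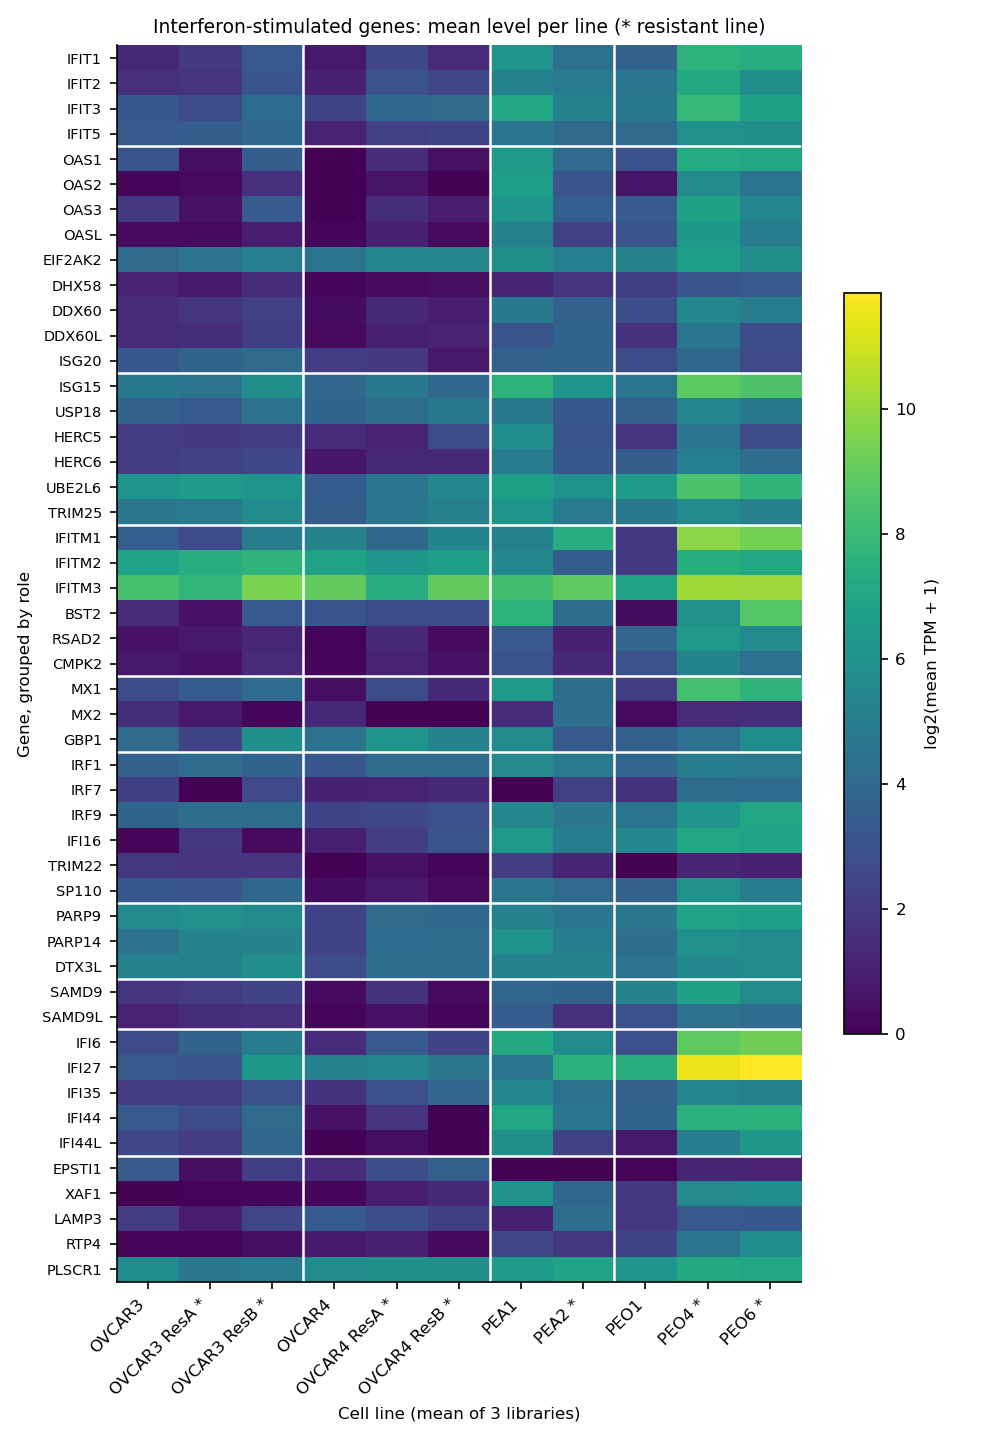
Mean level of each of the 49 genes, log2(mean TPM + 1) as colour, in each line (columns, mean of 3 libraries, resistant lines marked with an asterisk), with rows grouped by role and white lines between groups and families. The PEO4 and PEO6 columns are high in nearly every row, the OVCAR4 column is low in most, and IFITM3 and IFI27 are the brightest rows.

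The sensitive lines themselves differed in most members. In one fit of these 4 lines, 31 members were lower and 8 higher in OVCAR4 than in OVCAR3 (all genes: 28.6% lower and 23.6% higher), with a median log2 difference of -1.42 against -0.13 over all genes. PEA1 exceeded OVCAR3 in 37 members and fell below it in 5 (all genes: 27.8% higher and 30% lower), and it exceeded OVCAR4 in 40 and fell below it in 6 (29.5% and 27.3%), with a median of 3.82. PEO1 was higher than OVCAR3 in 20 members and lower in 13 (30.4% and 31.5%). It was higher than OVCAR4 in 32 and lower in 8 (32.1% and 29.7%), and higher than PEA1 in 7 and lower in 34 (27.6% and 26.6%). Without replicate 1 of every line the OVCAR4 contrasts held 35 calls against OVCAR3, 45 against PEA1 and 39 against PEO1. The shares of all genes called in that fit are not given. These contrasts share lines and are not independent of one another.

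The genes with the highest levels in the sensitive lines were not ordered alike. IFITM3 measured 222, 391 and 393 TPM in OVCAR3, 270, 684 and 602 TPM in OVCAR4, 347, 369 and 203 TPM in PEA1 and 128, 125 and 97 TPM in PEO1. PEO1 was the lowest of the 4 and did not overlap the others, and its log2 difference from OVCAR3 was -1.71 ± 0.36 (DESeq2 adjusted p = 6.56e-06). IFITM2 held 82.6, 134 and 129 TPM in OVCAR3 and 72.5, 144 and 130 TPM in OVCAR4, but 45.4, 48.6 and 43.2 TPM in PEA1 and 4.22, 3.25 and 1.86 TPM in PEO1. The E2 enzyme of ISG15 conjugation, UBE2L6, stood at 85.9, 70.9 and 66.2 TPM in OVCAR3, 136, 79 and 101 TPM in PEA1 and 96.6, 85 and 90.1 TPM in PEO1, with only 8.7, 11.3 and 10.4 TPM in OVCAR4. PLSCR1, among the most abundant members in OVCAR4, read 62.2, 32.2 and 49.7 TPM there. ISG15 itself measured 219, 296 and 101 TPM in PEA1, above every library of OVCAR3 (16.6, 26 and 38.1 TPM), OVCAR4 (13.5, 19.2 and 10.2 TPM) and PEO1 (21.8, 23.7 and 23.3 TPM). PEA1 exceeded OVCAR3 in ISG15 by 2.61 ± 0.40 on the log2 scale (DESeq2 adjusted p = 2.66e-10). BST2, or tetherin, which holds budding virions at the cell surface, read 257, 113 and 242 TPM in PEA1 and 0.57, 0.37 and 0 TPM in PEO1. PEO1 was thus almost without BST2 while holding 46.4, 47 and 38.2 TPM of the DNA sensor IFI16, of which OVCAR3 held 0.13, 0.16 and 0.13 TPM. The oligoadenylate synthetase OAS1, an activator of RNase L, had no count in any library of OVCAR4. IRF7, the factor that amplifies interferon production, had none in any library of PEA1, and neither had EPSTI1, a gene known from epithelial and stromal interaction.

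In OVCAR3 ResA, members moved in both directions against OVCAR3. 15 fell and 7 rose, among 22.9% of all genes called lower and 22% called higher in this pair, and 27 were not called. The median log2 fold change of the members was -0.18, and 23 of the 49 changes were above 0. The 22 calls stood near the share of all genes, 44.9%, and no direction of the set is read from them. Of the 9 genes that sense or degrade RNA 2 fell, a share like that of all genes, and of the 6 genes of membrane restriction and nucleotide antivirals 3 fell and 1 rose. With limma on log2(TPM + 1) 11 members were higher and 13 lower, beside 35.8% and 20.4% of all genes. OAS1 fell from 9.32, 6.77 and 5.99 TPM to 0.57, 0.08 and 0.47 TPM, a log2 change of -4.71 ± 0.44 (SE, DESeq2 adjusted p = 4.67e-25). Its neighbour on chromosome 12, OAS3, fell from 3.84, 2.76 and 2.34 to 0.50, 0.32 and 0.60 TPM. EPSTI1 fell from 12, 7.94 and 7.26 TPM to 0.48, 0.33 and 0.27 TPM (log2 change -4.79 ± 0.27, DESeq2 adjusted p = 2.62e-68). The libraries of the 2 lines did not overlap in any of these 3 genes.

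IRF7 fell below detection. It measured 2.74, 4.42 and 3.5 TPM in OVCAR3 and had no count in any library of OVCAR3 ResA, which makes it at least 43.1-fold lower against a floor of 3 counts per library. GBP1, a GTPase that attacks pathogen vacuoles, fell from 16.2, 13.6 and 18.1 TPM to 3.94, 4.44 and 5.01 TPM, and PLSCR1, a phospholipid scramblase, from 60.2, 57.9 and 43.7 TPM to 22.1, 25.8 and 27.2 TPM. The lysosomal glycoprotein LAMP3 fell from 3.67, 3.18 and 2.64 TPM to 0.74, 0.69 and 1.32 TPM. In the other direction, IFI16 rose from 0.13, 0.16 and 0.13 TPM to 2.38, 2.52 and 3.29 TPM, a log2 change of 4.16 ± 0.49 (DESeq2 adjusted p = 3.06e-16). MX1, a dynamin-like GTPase that traps viral nucleocapsids, rose from 6.72, 3.85 and 5.29 TPM to 10.3, 7.83 and 11.7 TPM (0.82 ± 0.19). IFI6, a small protein of the endoplasmic reticulum and mitochondria, rose from 5.61, 5.66 and 5.82 TPM to 12.7, 7.7 and 17 TPM (0.93 ± 0.31), but was not called without replicate 1 (DESeq2 adjusted p = 0.20) or without replicate 3 (0.32). ISG15 read 14.4, 23.5 and 27.6 TPM and overlapped OVCAR3. Same-numbered libraries of this pair deviated together, and a fit without the replicate block called 13 members in place of 22. 7 calls held under each alternative run: those of OAS1, OAS3, GBP1, IFI16, EPSTI1, LAMP3 and PLSCR1.

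In OVCAR3 ResB, the independent selection from OVCAR3, 9 members rose and 3 fell, with 35 not called and 2 without an adjusted p. Among all genes 4.1% were called higher and 3.57% lower. The median log2 fold change of the members was 0.74. IFI27 rose from 8.41, 9.61 and 9.29 TPM to 97.6, 83.7 and 54.3 TPM, without overlap (log2 change 2.96 ± 0.42, DESeq2 adjusted p = 1.49e-10), and GBP1 rose from 16.2, 13.6 and 18.1 TPM to 71.7, 41.9 and 65.1 TPM (1.80 ± 0.32, adjusted p = 1.49e-06). These 2 calls held under each alternative. IFIT1, which binds incompletely capped RNA, rose from 1.75, 1.56 and 1.52 TPM to 20.4, 5.24 and 2.55 TPM (1.92 ± 0.52). Its level in replicate 1 was far above those in replicates 2 and 3, and without replicate 1 the DESeq2 adjusted p was 0.57. BST2 read 16.6, 5.46 and 5.6 TPM and IFI6 61.6, 23.9 and 5.46 TPM in the same order, and neither was called without replicate 1 (adjusted p = 0.39 and 0.82). Without replicate 1 the members called in this pair numbered 4, beside 2.04% of all genes called higher and 1.83% lower. Without replicate 2 they also numbered 4 (1.62% and 1.39%), and without replicate 3 they numbered 21 (7.01% and 5.49%).

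The members that fell in OVCAR3 ResB were MX2, EPSTI1 and PLSCR1. MX2, a relative of MX1 that acts on nuclear entry of viral DNA, fell from 2.91, 1.58 and 1.22 TPM to 0.19, 0.10 and 0.09 TPM (log2 change -4.09 ± 0.69, DESeq2 adjusted p = 2.01e-07). EPSTI1 fell from 12, 7.94 and 7.26 TPM to 5.93, 1.58 and 3.07 TPM (-1.63 ± 0.41), and PLSCR1 to 30.9, 20.1 and 32.8 TPM (-1.05 ± 0.32). In the direct comparison of the 2 selections, 17 members were higher and 2 lower in ResB than in ResA, against 7.47% and 6.04% of all genes. OAS1 measured 15.7, 7.92 and 7.27 TPM in ResB, a log2 difference from ResA of 5.18 ± 0.60 (DESeq2 adjusted p = 5.16e-16). OAS3, BST2 and GBP1 were also higher in ResB, by 4.32 ± 0.38, 4.12 ± 0.63 and 3.73 ± 0.35. The 2 that were lower were IFI16, at 0.59, 0.11 and 0 TPM in ResB (-4.30 ± 0.85), and MX2 (-2.75 ± 0.86). Across the alternatives that left out a replicate this count of 19 ranged from 7 to 24. In those fits 3.24% to 12.3% of all genes were called higher and 1.91% to 11.2% lower.

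In OVCAR4 ResA, 16 members rose and 4 fell against OVCAR4, where 6.68% of all genes were called higher and 5.22% lower. The median log2 fold change was 1.05. All 3 members of the PARP9, DTX3L and PARP14 group rose, as did 3 of 4 IFIT genes and 4 of 9 genes that sense or degrade RNA. None of the 6 genes ISG15, USP18, HERC5, HERC6, UBE2L6 and TRIM25 was called. MX1 rose from 0.43, 0.45 and 0.21 TPM to 10.3, 3.41 and 3.63 TPM (log2 change 3.31 ± 0.58, DESeq2 adjusted p = 8.48e-07). PARP14, a mono-ADP-ribosyltransferase, rose from 6.21, 3 and 3.85 TPM to 8.86, 20 and 22.1 TPM (1.41 ± 0.40). IFIT3 rose from 5.08, 3.67 and 4.48 TPM to 18.3, 13 and 14.2 TPM and IFIT2 from 1.38, 0.92 and 1.05 TPM to 8.31, 6.23 and 6.86 TPM, with no overlap in either. OAS3 rose from 0.08, 0.02 and 0.01 TPM to 4.18, 0.61 and 1.02 TPM (5.37 ± 0.76). The antiviral factor SAMD9 rose from 0.57, 0.06 and 0.18 TPM to 5.51, 0.75 and 0.88 TPM (2.56 ± 0.53), with most of the signal in replicate 1.

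The members that fell in OVCAR4 ResA were MX2, IFITM1, IFITM3 and LAMP3. MX2 fell from 1.77, 1.36 and 1.25 TPM to 0.11, 0 and 0.02 TPM (log2 change -5.95 ± 0.99, DESeq2 adjusted p = 1.5e-07). IFITM3 fell from 270, 684 and 602 TPM to 208, 148 and 149 TPM (-2.12 ± 0.50) and LAMP3 moved from 6.48, 10.7 and 12.6 TPM to 4.41, 6.77 and 6.71 TPM (-1.25 ± 0.37), overlapping. Replicate 1 of OVCAR4 ResA held the highest value of many members. It had 89.4 TPM of IFI27 against 23.4 and 16.4 TPM in replicates 2 and 3, 6.18 TPM of IFI44 against 0.71 and 0.47 TPM, and 5.22 TPM of OAS1 against 0.18 and 0.21 TPM. The epithelial marker WT1 read 5.91 TPM in that library and 0.416 and 0.576 TPM in replicates 2 and 3. Its mean was 0.718 TPM in OVCAR4, 0.645 TPM in OVCAR4 ResB and 128 TPM in PEO4. What set this library apart was not tested. OAS1 had no count in OVCAR4, a difference of at least 13.2-fold, and its call was lost in each fit that left out a replicate. Without replicate 1 of both lines, 16 members rose and 8 fell, beside 21.4% and 19.4% of all genes. Without replicate 2 the members called numbered 6, beside 1.54% of all genes called higher and 0.997% lower. Without replicate 3 they numbered 7 (1.17% and 0.763%). No call in this pair held under each alternative, and limma on log2(TPM + 1) called 0 members and 0.49% and 0.194% of all genes higher and lower.

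In OVCAR4 ResB, 12 members rose and 6 fell, beside 9.09% of all genes called higher and 8.77% called lower, and the median log2 fold change was 0.69. IFI16 rose from 1.4, 0.87 and 0.77 TPM to 6.82, 6.63 and 8.7 TPM, without overlap (log2 change 2.34 ± 0.41, DESeq2 adjusted p = 4.37e-07), and this was the call that held under each alternative. IFI35 rose from 2.49, 2.45 and 1.97 TPM to 6.72, 17.3 and 16.7 TPM (1.87 ± 0.44), EPSTI1 from 2.08, 1.23 and 1.68 TPM to 4.65, 14 and 14.1 TPM (1.78 ± 0.40), and UBE2L6 from 8.7, 11.3 and 10.4 TPM to 27.7, 50.7 and 59.3 TPM (1.54 ± 0.34). In each of these 3 genes replicate 1 was the lowest of the resistant libraries yet above every OVCAR4 library. XAF1, an antagonist of the apoptosis inhibitor XIAP, rose from 0.185, 0.042 and 0.127 TPM to 2.36, 1.08 and 1.23 TPM (3.32 ± 0.70).

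LAMP3 fell in OVCAR4 ResB, from 6.48, 10.7 and 12.6 TPM to 1.93, 4.05 and 4.87 TPM (log2 change -2.11 ± 0.35, DESeq2 adjusted p = 5.86e-08), and so did the exonuclease ISG20, from 2.18, 3.76 and 3.87 TPM to 0.69, 0.61 and 0.98 TPM (-2.72 ± 0.73). BST2 was called lower (-1.26 ± 0.43, adjusted p = 0.026) although its libraries, at 2.26, 7.62 and 6.35 TPM, overlapped the 5.95, 10.5 and 7.21 TPM of OVCAR4. MX2 had no count in any library, at least 34.4-fold lower than in OVCAR4. IFITM3, at 504, 533 and 527 TPM, was not called. Without replicate 1 of both lines 20 members rose and 9 fell, beside 23.2% and 22.9% of all genes. Without replicate 2 the calls numbered 6, beside 2.57% of all genes called higher and 2.46% lower. Without replicate 3 they numbered 4 (2.15% and 2.11%).

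Set against each other, OVCAR4 ResB was higher than OVCAR4 ResA in 10 members and lower in 9, among 16.2% and 16.5% of all genes. The median difference was -0.16, and on the log2(TPM + 1) scale it was 0.0056 beside 0.024 over all genes. Interferon-induced genes with their highest value in replicate 1 of ResA were among those lower in ResB, such as MX1 (-1.79 ± 0.55), IFIT1 (-1.39 ± 0.43) and RSAD2, or viperin (-2.11 ± 0.61). IFITM3 was higher in ResB by 1.6 ± 0.12 (DESeq2 adjusted p = 1.5e-36), with no overlap, and the ISG15 ligase HERC5, at 2.34, 6.2 and 7.2 TPM against 1.36, 1.41 and 1.14 TPM, by 1.84 ± 0.37. Same-numbered libraries of this pair deviated together, and without the replicate block 11 members were called in place of 19. Without replicate 1 of both lines 9 members were higher and 3 lower, beside 13.8% and 14.9% of all genes. Without replicate 2 it was 2 and 5 (5.9% and 6.6%), and without replicate 3 it was 3 and 5 (9.67% and 10%).

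**Figure D3:**
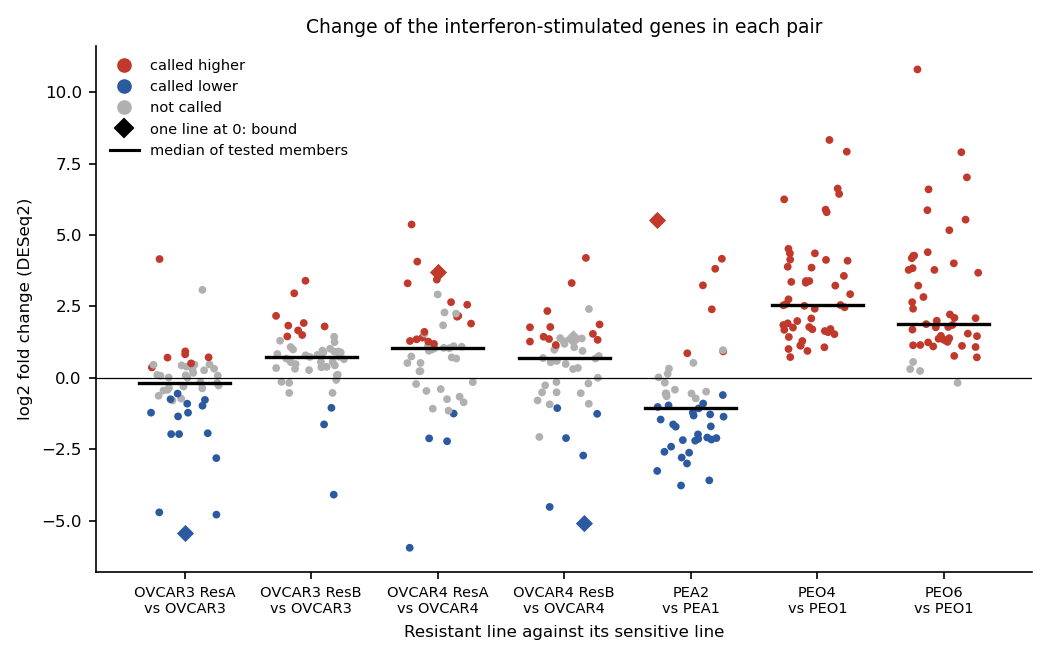
DESeq2 log2 fold change of the members (vertical axis) in each of 7 pairs of a resistant line with its sensitive line, red where called higher, blue where called lower and grey where not called, with the median of the tested members as a bar and diamonds at the bound for members without a count in 1 of the lines. All 49 members lie above 0 and are called in PEO4, while 28 are called lower in PEA2.

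The PEA pair ran the other way. In PEA2, 28 members fell and 7 rose against PEA1, beside 23.8% of all genes called lower and 23.3% called higher, and the median log2 fold change was -1.05. Of the 6 genes ISG15, USP18, HERC5, HERC6, UBE2L6 and TRIM25, 5 fell, as did 6 of 9 genes that sense or degrade RNA and 4 of 5 of the remaining IFI genes. IFI44L fell from 73.8, 73 and 33.2 TPM to 5.19, 1.86 and 4.64 TPM (log2 change -3.77 ± 0.35, DESeq2 adjusted p = 2.16e-25), and OAS2 fell from 145, 66.8 and 80.5 TPM to 11.3, 3.92 and 8.66 TPM (-3.59 ± 0.27, adjusted p = 5.19e-40). BST2 fell from 257, 113 and 242 TPM to 20.1, 16.1 and 19.3 TPM (-3.26 ± 0.24). ISG15 fell from 219, 296 and 101 TPM to 69.8, 64.6 and 75.5 TPM (-1.32 ± 0.36), a call lost without replicate 1 (DESeq2 adjusted p = 0.0771) and without replicate 2 (0.0888). MX1 fell from 131, 51.1 and 64.7 TPM to 26.2, 10.3 and 19.5 TPM (-1.98 ± 0.26), and IFIT1 from 94.4, 66.5 and 45.5 TPM to 22.8, 11.5 and 25.2 TPM (-1.70 ± 0.35). The libraries of the lines were separate in each of these 6 genes, and PEA2 still lay above every OVCAR4 library in all 6.

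The 7 members that rose in PEA2 included some of the largest changes of the pair. LAMP3 went from 1.17, 1.07 and 1.12 TPM to 19.7, 15 and 21 TPM (log2 change 4.17 ± 0.29, DESeq2 adjusted p = 3.05e-45), and MX2 from 3.36, 1.1 and 1.03 TPM to 22.3, 16.2 and 18 TPM (3.82 ± 0.33, adjusted p = 1.26e-29). IFI27 rose from 30.1, 26.9 and 12.5 TPM to 233, 113 and 223 TPM (3.24 ± 0.38) and IFITM1 from 51.7, 37.3 and 20.1 TPM to 195, 125 and 196 TPM (2.40 ± 0.35). IRF7, without a count in PEA1, read 3.53, 3.21 and 4.68 TPM in PEA2, at least 45.6-fold higher. IFITM2 fell (-2.09 ± 0.32) while IFITM1 rose. Of the 35 calls 26 held under each alternative. The lines also differed in markers: the 8 epithelial genes summed to 426 TPM in PEA1 and 3183 TPM in PEA2, the collagen gene COL1A1 stood at 88.4 TPM in PEA1 and 0.88 TPM in PEA2, and the 6 leukocyte genes summed to 19.1 and 56.3 TPM, most of it CD68 (18.7 and 49.9 TPM). The part of these differences in the result was not tested.

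In PEO4 every one of the 49 members rose against PEO1, where 16.6% of all genes were called higher and 16.7% lower. The median log2 fold change was 2.55 and the range 0.73, in GBP1, to 8.33, in IFITM1. IFITM1 rose from 3.71, 3.23 and 1.53 TPM to 983, 959 and 732 TPM (8.33 ± 0.26, DESeq2 adjusted p = 9.77e-222). BST2 rose from 0.57, 0.37 and 0 TPM to 94.8, 64.6 and 26.7 TPM (7.92 ± 0.84, adjusted p = 8.95e-20), MX1 from 4.21, 2.91 and 3.06 TPM to 408, 354 and 227 TPM (6.63 ± 0.18), and OAS2 from 0.81, 0.55 and 0.35 TPM to 67, 50.4 and 26.1 TPM (6.44 ± 0.24). ISG15 rose from 21.8, 23.7 and 23.3 TPM to 519, 445 and 426 TPM (4.36 ± 0.19), IFIT1 from 12.2, 15.7 and 8.58 TPM to 241, 224 and 150 TPM (4.13 ± 0.19), and IFI27 from 172, 217 and 120 TPM to 3094, 3238 and 2492 TPM (4.10 ± 0.19). The libraries of PEO4 and PEO1 were separate in each gene whose values are given above. Among the smaller rises were those of PLSCR1 (75.1, 69.5 and 77 TPM to 155, 142 and 137 TPM) and of TRIM25, an E3 ligase that acts on RIG-I (29, 18.1 and 30.7 TPM to 65.1, 49.3 and 33.1 TPM). Of the 49 calls 42 held under each alternative, and 46 to 49 members were called with any 1 replicate left out. In those fits 9.13% to 18.8% of all genes were called higher and 9.2% to 18.6% lower.

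In PEO6, 45 members rose and 0 fell by DESeq2, beside 21.2% and 20.3% of all genes, and 46 had an unadjusted p under 0.05. The median log2 fold change was 1.88. BST2 rose furthest, from 0.57, 0.37 and 0 TPM to 276, 451 and 489 TPM (10.80 ± 1.40, DESeq2 adjusted p = 2.5e-13), followed by IFITM1, which reached 669, 693 and 639 TPM (7.90 ± 0.29). ISG15 reached 336, 402 and 377 TPM (4.01 ± 0.23) and MX1 137, 181 and 309 TPM (5.87 ± 0.27). The 4 members not called were ISG20 (-0.17 ± 0.44), SAMD9 (0.24 ± 0.28), TRIM25 (0.31 ± 0.25) and EIF2AK2, the kinase PKR (0.56 ± 0.25). Both comparisons use the PEO1 libraries and are not independent. Compared directly, PEO6 was lower than PEO4 in 13 members and higher in 4, among 8.33% and 9.86% of all genes, with a median of -0.31. HERC5, at 6.35, 2.64 and 8.49 TPM in PEO6 and 34.4, 26 and 13 TPM in PEO4, differed by a log2 change of -2.17 ± 0.41, and also lower were DDX60L (-2.0 ± 0.31), OASL (-1.56 ± 0.35) and OAS3 (-1.49 ± 0.37). BST2 (2.80 ± 0.38), GBP1 (1.37 ± 0.29), IFI44L (1.19 ± 0.32) and RTP4, a receptor transporter (1.12 ± 0.32), were higher in PEO6. With a replicate left out, between 3 and 26 members were called in this comparison. In those fits 2.82% to 15.7% of all genes were called higher and 1.99% to 17% lower.

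Over the 343 combinations of a member and a pair, 145 were called higher, 56 lower and 137 not called, and 5 had no adjusted p. No member rose in every pair: 6 rose in 5 of the 7 pairs, and 37 rose in at least 1 pair and fell in at least 1 other. The 6 were IFIT1, IFIT2, OAS3, DDX60L, MX1 and PARP14. These counts over pairs are not given for all genes, and nothing about the set is read from them. In single pairs, 7.67% (OVCAR3 ResB) to 47% (PEA2) of all genes were called. OAS3 and MX2 were called in all 7 pairs, OAS3 higher in 5 and MX2 in 3. OAS3 was lower in OVCAR3 ResA and in PEA2, where it fell from 101, 44.7 and 63.3 TPM to 16.3, 7.14 and 8.62 TPM, and it reached 150, 115 and 69 TPM in PEO4. MX2 was lower in all 4 cisplatin-selected lines and higher in PEA2, PEO4 and PEO6, where PEA2 held the highest level of any line. BST2 and LAMP3 were each higher in 3 pairs and lower in 3, and GBP1 was higher in 4 and lower in 2. IFIT3 was higher in 4 pairs and lower in OVCAR3 ResA (7.41, 8.66 and 10.2 TPM to 4.61, 5.25 and 7.66 TPM) and PEA2 (177, 122 and 104 TPM to 42.5, 28.2 and 42.6 TPM). GBP1 measured 31.2, 14 and 16.4 TPM in OVCAR4, 46.3, 64.8 and 98.2 TPM in OVCAR4 ResA and 45.2, 31.3 and 37.7 TPM in OVCAR4 ResB, and it fell from 53.3, 54.5 and 35.9 TPM in PEA1 to 9.48, 8.09 and 10.3 TPM in PEA2. LAMP3 rose from 2.64, 2.34 and 3.03 TPM in PEO1 to 10.8, 9.27 and 6.92 TPM in PEO4 and 7.34, 8.72 and 9.9 TPM in PEO6. In the same lines MX2 rose from 0.34, 0.21 and 0.29 TPM to 2.7, 1.72 and 0.90 TPM and 1.66, 1.36 and 2.78 TPM, all below its level in PEA2. Pairs of one family share the libraries of their sensitive line.

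**Figure D4:**
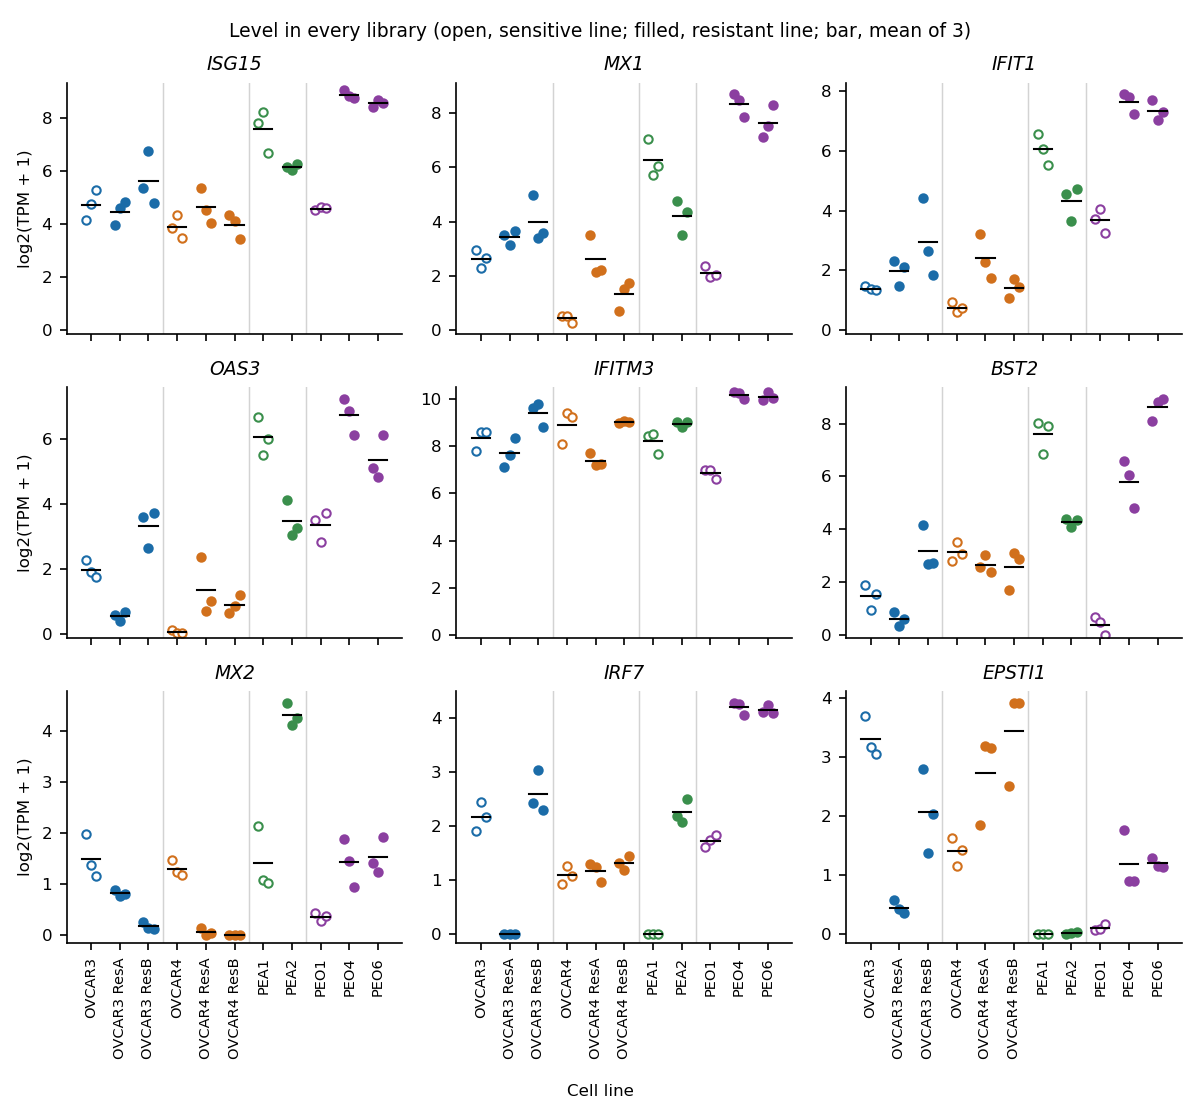
Level of 9 members, log2(TPM + 1), in every library of the 11 lines (open points sensitive, filled points resistant, bar the mean of 3), with grey lines between families. ISG15, MX1 and IFIT1 are highest in PEO4 and PEO6, MX2 is highest in PEA2 and near 0 in OVCAR4 ResA and ResB, IRF7 is at 0 in OVCAR3 ResA and PEA1, and EPSTI1 is near 0 in PEA1 and PEA2.

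Whether the change on resistance differed between families was tested as an interaction over all 33 libraries. The change of a family was the mean of its resistant lines minus its sensitive line. This averaged 2 resistant lines in OVCAR3, OVCAR4 and PEO and used 1 in PEA. In OVCAR3 it averaged lines with member medians of -0.18 (ResA) and 0.74 (ResB). The p-values do not take in the spread between cultures. The change in the PEO family exceeded that in the PEA family in 40 members and was below it in 2, with 43.7% of all genes called. It exceeded the change in the OVCAR3 family in 37 members and was below it in 0 by DESeq2 (32.1% of all genes called), with 42 members at an unadjusted p under 0.05 in either direction, and it exceeded that in the OVCAR4 family in 25 and was below it in 1 (36%). On log2(TPM + 1) with limma, the member below, OAS3, turned to 1.62 and EPSTI1, one of those above, to -0.60. The PEA change was below the OVCAR4 change in 32 members and above it in 8 (41.4%), and below the OVCAR3 change in 26 and above it in 8 (37%). The OVCAR4 change exceeded the OVCAR3 change in 14 members and was below it in 5 (22.6%). Without replicate 1 of every line, the members called numbered 38 for PEA against OVCAR4, 29 for PEO against OVCAR4 and 21 for OVCAR4 against OVCAR3, and without replicate 2 the last numbered 9. The shares of all genes called in these reduced fits are not given. For ISG15 the PEO change exceeded the PEA change by 5.59 ± 0.71 on the log2 scale (DESeq2 adjusted p = 3.46e-14) and the OVCAR3 change by 3.97 ± 0.66 (adjusted p = 2.29e-08), whereas the OVCAR4 and OVCAR3 changes differed by -0.22 ± 0.66 (adjusted p = 0.88). For LAMP3 the PEO change was below the PEA change (-2.43 ± 0.40). For IFI27 both rose and their difference was 0.93 ± 0.66 (adjusted p = 0.26).

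With the line as the unit, resistance and the members were not linked by a call. Counts were summed over replicates, and the 7 resistant lines were compared with the 4 sensitive lines with family as a covariate. DESeq2 called 0 of the 49 members, beside 0.286% of all genes, and the edgeR quasi-likelihood test also called 0, while 12 members had an unadjusted p under 0.05. The median log2 difference of the members was 0.70 and 46 of 49 were above 0, against a median of 0.01 over all genes. The smallest adjusted p by DESeq2 belonged to XAF1 (log2 difference 2.37 ± 0.73, adjusted p = 0.185). Without the PEA family 4 members were called, and without the OVCAR3 or the OVCAR4 family 1 each. The share of all genes called in these reduced fits is not given, and nothing is read from these counts.

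The upstream pathway was followed in 33 further genes: interferons, receptors, kinases, STAT proteins, restraints and nucleic acid sensors. Transcripts of most interferons on this list were at or near 0. Of the alpha interferons the list held only IFNA1, and the others were not looked at. IFNA1 and IFNG had no TPM above 0 in any line, and IFNB1 averaged at most 0.36 TPM. The lambda interferon IFNL1 read 5.85, 3.58 and 5.43 TPM in PEO4 and 0.70, 0.51 and 0.76 TPM in PEO6, and its mean was at most 0.179 TPM in every other line. It was called higher in PEO4 (DESeq2 adjusted p = 1.57e-07) and PEO6 (0.046) on few counts in PEO1. IFNE, expressed in reproductive epithelium, read 2.69, 7.41 and 9.34 TPM in OVCAR3 ResA and 0 in the PEO lines.

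Receptors and sensors were also measured. IL10RB, a subunit of the lambda interferon receptor, was called in 6 pairs: it was lower in both OVCAR3 selections, at 26.3 ± 1.91 and 28 ± 6.88 TPM against 49.6 ± 5.75 TPM, and higher in both OVCAR4 selections, at 27.9 ± 2.71 and 31.3 ± 5.01 TPM against 8.94 ± 1.03 TPM, and higher in PEO4 and PEO6. The RNA sensor RIG-I (DDX58 in the files) stood at 146, 117 and 65.4 TPM in PEO4 against 20.9, 17.9 and 17.3 TPM in PEO1 (2.51 ± 0.18, DESeq2 adjusted p = 2.04e-41), and fell in PEA2 (-1.34 ± 0.24). STING (TMEM173 in the files), the adaptor of cytosolic DNA sensing, rose in all 4 cisplatin-selected lines, to 73.5 ± 18 and 73.7 ± 19.1 TPM in the OVCAR4 selections from 20.6 ± 1.53 TPM and to 12.2 ± 0.23 and 27.1 ± 7.1 TPM in the OVCAR3 selections from 6.51 ± 0.88 TPM. The DNA sensor cGAS (MB21D1 in the files) averaged at most 0.0826 TPM in the 3 OVCAR3 lines and fell in OVCAR4 ResA and ResB from 2.15 ± 0.64 TPM to 0.28 ± 0.41 and 0.04 ± 0.05 TPM. In OVCAR4 ResA it read 0.75 TPM in replicate 1 and 0.0461 and 0.0445 TPM in replicates 2 and 3. Of the 33 genes, 4 were called higher and 11 lower in OVCAR3 ResA, 1 and 2 in OVCAR3 ResB, 2 and 1 in OVCAR4 ResA, 5 and 2 in OVCAR4 ResB, 5 and 7 in PEA2, 9 and 4 in PEO4 and 10 and 1 in PEO6, with 7 to 9 in each pair at counts too low for an adjusted p. The shares of all genes called higher and lower were 22% and 22.9% in OVCAR3 ResA, 4.1% and 3.57% in OVCAR3 ResB, 6.68% and 5.22% in OVCAR4 ResA, 9.09% and 8.77% in OVCAR4 ResB, 23.3% and 23.8% in PEA2, 16.6% and 16.7% in PEO4 and 21.2% and 20.3% in PEO6, and nothing is read from counts near them.

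**Figure D5:**
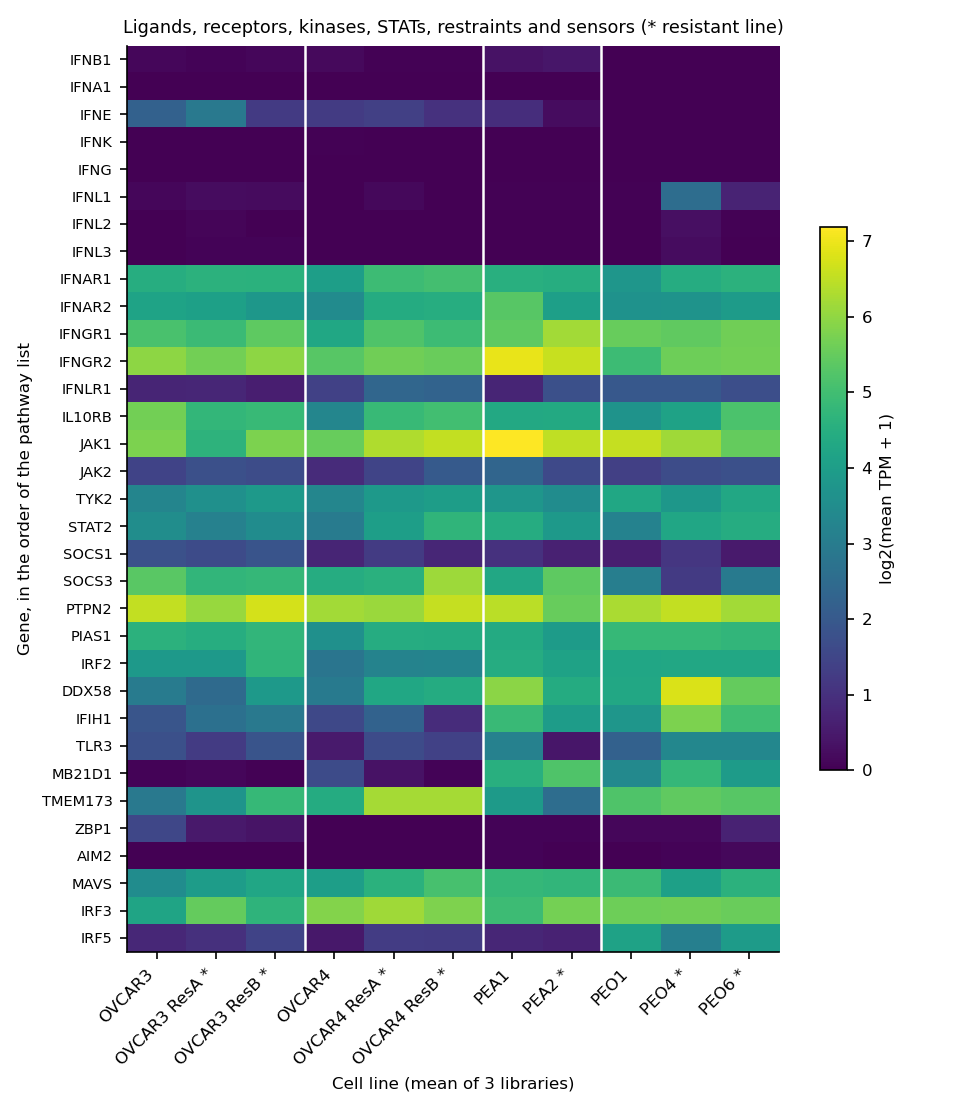
Mean level of 33 genes upstream of the members, log2(mean TPM + 1) as colour, in each line (columns, mean of 3 libraries, resistant lines marked with an asterisk), from interferons at the top through receptors, kinases and STAT proteins to sensors. JAK1 is brightest in PEA1 (145 TPM), DDX58 in PEO4 (109 TPM), and the rows of most interferons are near 0.

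Across the means of the 11 lines, most members followed one another. Over 14207 genes, the likest to ISG15 in log2(TPM + 1) were IFI6 (Pearson's r = 0.985), MX1 (0.979), IFIT1 (0.964), OAS1 (0.962) and IFI44 (0.948), all members. The likest to IFIT1 were DDX60 (0.982), LY6E (0.968), ISG15, OASL and IFI6, of which LY6E was not in the set. The median correlation with ISG15 was 0.825 over the other 48 members and 0.02 over all genes. IRF9, a member, followed ISG15 at 0.898, and STAT2, which is not one, at 0.545. EPSTI1 was the member least like ISG15, at -0.364: it was highest in OVCAR3 and OVCAR4 ResB and at most 0.12 TPM in any library of PEA1, PEA2 and PEO1. These correlations describe 11 lines in 4 families, and lines of one family are not independent points.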

How the data were processed

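The authors prepared poly(A) libraries (KAPA mRNA HyperPrep) of 11 human ovarian carcinoma cell lines and quantified genes with salmon in nf-core/rnaseq on GRCh38, and the labels also name DRAGEN. Whether counting used strand is not given in the sources used here. The deposited tables held estimated counts, of which 88.4% were whole, and TPM, both made by the authors with no further scaling. The members were matched by symbol, and the members and gene lists were chosen with earlier results of these data known. Estimated counts were rounded and tested with DESeq2 1.42.0 (Wald test, line plus replicate number, the 6 libraries of each pair, no filter on low counts), after the study's own design, and a call was a Benjamini-Hochberg adjusted p below 0.05 over all genes tested. The 4 sensitive lines were fitted together, family differences were interactions over all 33 libraries, and the line-level fit summed counts per line. The deviations of same-numbered libraries correlated above 0.1 in all 3 replicates for OVCAR3 ResA against OVCAR3 (r = 0.641, 0.233 and 0.421) and for OVCAR4 ResB against OVCAR4 ResA (0.698, 0.489 and 0.537), where the number was taken as a pairing, and elsewhere libraries shared only a number. Alternatives were edgeR 4.0.16, TMM scaling, a filter of 10 counts in 3 libraries, no replicate block, all 33 libraries in 1 fit, each replicate left out, and limma 3.58.1 on log2(TPM + 1) and log2(TPM + 0.1). TPM rescaled without ribosomal RNA genes was added after seeing the data. The scripts were tested on simulated data. Values in every library were to be given for the 2 largest called increases and decreases of each pair (average normalised count 100 or more, no sign change among the 3 library pairs of equal number), members called in 6 or 7 pairs, and the most abundant members of each sensitive line. Other members were named after their values were seen. Related genes (IFITM1 to IFITM3, DDX60 and DDX60L, SAMD9 and SAMD9L, the OAS genes) and the overlapping PARP9 and DTX3L may share reads, so their split is uncertain. The floor of 3 counts covers counting error only, and SDs and SEs are over libraries.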

Additional observations from a re-analysis of the deposited data

Results flagged for a closer look

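The interaction test over all 33 libraries (DESeq2, adjusted over all genes) takes in no spread between cultures. By this test the change from a sensitive line to the mean of its resistant lines differed between families for many members. It differed for 19 of the 49 members between the OVCAR4 and OVCAR3 families, for 34 between PEA and OVCAR3, for 37 between PEO and OVCAR3, for 40 between PEA and OVCAR4, for 26 between PEO and OVCAR4 and for 42 between PEO and PEA. Beside them, 22.6%, 37%, 32.1%, 41.4%, 36% and 43.7% of all genes were called, in the same order. The share of members called was above that of all genes in every one of these comparisons, and the first was the comparison in which they were called least often. The 6 comparisons share families and are not independent.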

How the results depend on the processing

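Of 201 member calls in the 7 pairs, 201 held with TMM scaling, 178 with edgeR, 186 with all 33 libraries in 1 fit, 191 without the replicate block and 157 to 163 with a replicate left out, and none reversed. With all 33 libraries in 1 fit the members called numbered 10 in OVCAR3 ResA, 19 in OVCAR3 ResB, 34 in OVCAR4 ResA and 28 in OVCAR4 ResB. Without the replicate block they numbered 13 in OVCAR3 ResA and 11 in OVCAR4 ResB against ResA, and the block changed no other count by over 1.5 times. edgeR called 8 in OVCAR4 ResA and 11 in OVCAR4 ResB. The shares of all genes called by edgeR, in the single fit or without the block are not given. limma on log2(TPM + 0.1) and on log2(TPM + 1) called 4 and 3 in OVCAR3 ResB, 5 and 0 in OVCAR4 ResA, 7 and 1 in OVCAR4 ResB, 10 and 9 in OVCAR3 ResB against ResA, 9 and 10 in OVCAR4 ResB against ResA, and 4 and 6 in PEO6 against PEO4. On log2(TPM + 1) all genes called higher were, in the same order, 1.46%, 0.49%, 1.3%, 2.57%, 18.4% and 4.48%. Those called lower were 1.09%, 0.194%, 0.649%, 1.92%, 14.7% and 2.67%. With a replicate left out the counts were 12 to 16 in OVCAR3 ResA, 4 to 21 in OVCAR3 ResB, 6 to 24 in OVCAR4 ResA, 4 to 29 in OVCAR4 ResB, 7 to 24 in OVCAR3 ResB against ResA, 7 to 12 in OVCAR4 ResB against ResA, 3 to 26 in PEO6 against PEO4 and 9 to 21 for the OVCAR4 and OVCAR3 family difference. The share of all genes called higher moved as well. In the same order it was 14.3% to 16.5%, 1.62% to 7.01%, 1.17% to 21.4%, 2.15% to 23.2%, 3.24% to 12.3%, 5.9% to 13.8% and 2.82% to 15.7%. It is not given for the family difference. At line level 1 member was called without the OVCAR3 family, 1 without the OVCAR4 family and 4 without the PEA family, with no share of all genes given beside them. Family differences reversed on log2(TPM + 1) for OAS3 (PEO against OVCAR4, 1.62), EPSTI1 (PEO against OVCAR4, -0.60) and IRF7 (PEO against PEA, 0.18). The cause was not tested.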
